A study of Mus musculus with 15 samples.

Results

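The genes described here are 40 mouse genes of DNA replication and S phase, the stage of the cell cycle in which the chromosomes are copied. They were chosen by name and function, and all 40 have a row in a table of 25329 genes measured by bulk RNA sequencing of ileum. The table holds 15 libraries in 3 groups. The 5 DHO libraries are from TAK1 IEC-KO Ripk1 D138N/D138N mice, in which TAK1 (the kinase encoded by Map3k7) was deleted in intestinal epithelial cells and both Ripk1 copies carried D138N, an allele known to abolish the kinase activity of RIPK1. The 5 HO libraries are from TAK1 IEC-KO mice with no Ripk1 allele named, and the 5 WT libraries are from Tak1f/f mice, whose Tak1 alleles were floxed. Tamoxifen, the inducer of the deletion, is described for the mice of every genotype as 3 daily doses of 80 mg/kg into the peritoneum, and the tissue is of day 3 after induction. The promoter that drives the recombinase, and the age and sex of the mice, are not given in the sources used here. The design asks what RIPK1 kinase activity does in the ileitis of mice without epithelial TAK1.

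A cell that is to divide first marks its replication origins. The origin recognition complex, Cdc6 and Cdt1 load the Mcm helicase in G1, and Cdc45 and the GINS complex turn that helicase on in S phase. Polymerases, the sliding clamp and its loader, and the chromatin assembly factors then work at the fork. The enzymes of nucleotide supply keep up the pool of deoxynucleotides. Many of the genes of all these proteins are switched on together by E2F transcription factors. In the small intestine dividing cells lie mostly in the crypts, where stem cells and their transit-amplifying daughters renew the epithelium every few days.

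Values are FPKM, that is, read counts divided by the length of the gene and the depth of the library. Depth ran from 38724618 to 40589889 reads per library, so depth differed little between libraries. A change is the difference of group means of log2(FPKM + 1), with its standard error (SE) and a Benjamini-Hochberg adjusted p from limma-trend over 11332 genes, those that reached 1 FPKM in 5 or more libraries. A gene is said to rise or fall where the adjusted p is under 0.05. Of the 40 genes, 39 entered that test, and Pole, which reached 1 FPKM in 3 libraries, did not. Of the 39, 6 had no HO library at 1 FPKM (Gins3, Cdc45, Cdc6, Orc1, Chaf1b and E2f1). These 6 entered through the other groups only.

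Some facts of the libraries bear on all that follows. Map3k7 read 8.31 to 10.1 FPKM in DHO, 6.88 to 9.42 in HO and 9.39 to 11.2 in WT. Its change was -0.24 in HO against WT (adjusted p = 0.0419) and -0.15 in DHO against WT (adjusted p = 0.962). A value per gene does not show the floxed exons separately. The epithelial gene Epcam was at 1570 to 1880 FPKM in DHO, 1170 to 1580 in HO and 1530 to 1790 in WT. Its change in HO against WT did not pass (-0.19, adjusted p = 0.112), but 4 of 11 epithelial genes, named below, were lower in HO. Gata4, a transcription factor of the proximal intestine, read 19.0 FPKM in DHO 3, 18 in DHO 4 and 27.3 in HO 1, and at most 0.529 in each of the other 12 libraries. The bile acid binding protein gene Fabp6, a marker of ileum, was at 0.0491 FPKM in HO 1, so that library goes against its label of ileum. Fabp6 was at 7180 to 9780 FPKM in DHO, 1360 to 13000 in HO 2 to 5 and 6940 to 11800 in WT. Hoxb9, a gene of the distal intestine, read 13.5, 14.6, 0.442, 0.397 and 13.9 FPKM in DHO, 0, 2.19, 7.01, 1.91 and 8.24 in HO, and 13.3 to 17.8 in WT. It and 2 others of 5 ileum genes, Hoxb7 and Hoxb8, were lower in HO than in WT, with no overlap, so markers of position moved with HO beyond HO 1. Their part in the results was not tested. The summed level of 12 B cell genes was 73.0 FPKM in DHO 1, 65.5 in HO 2 and 154 in HO 4, against 4.06 to 5.55 in the other DHO libraries, 4.67 to 6.52 in the other HO libraries and 7.67 to 10.3 in WT. Without DHO 3, DHO 4 and HO 1, 38 of the 39 genes were lower in HO than in WT, as were 41.6% of all genes tested, and 38 were higher in DHO than in HO, as were 42.6%. Without DHO 1, HO 2 and HO 4 the counts were 39 lower, beside 35.6% of all genes, and 38 higher, beside 33.1%.

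All 39 genes tested were lower in HO than in WT, where 42.9% of all genes tested were lower and 12.4% higher. The 6 genes with no HO library at 1 FPKM could enter the test only by being higher elsewhere, and of the other 33 genes 33 were lower in HO than in WT and 33 higher in DHO than in HO. Some of the 33 also needed the other groups to enter, such as Tyms, Pola1 and Ccne1, with 1 HO library each at that level. The 21 genes at 1 FPKM in all 15 libraries did not, and all 21 were lower in HO than in WT and higher in DHO than in HO. The share of all genes that meet these same conditions was not computed, so the counts of 33 and 21 have no matching background. With a stricter filter of 5 FPKM 24 genes were tested, and all 24 were lower in HO than in WT, beside 47.6% of all genes, and all 24 higher in DHO than in HO, beside 48.1%. Among these only Pcna, Rfc2, Rrm2 and Mcm3 had an HO library at 5 FPKM. The rest entered through DHO and WT, where they are high, so the stricter filter does not lift that limit. The median change of the 39 was -1.001 on the log2 scale, against -0.25 for all genes, and the smallest and largest changes were -0.52 (Pola2) and -2.34 (Tk1). In 33 of the 39 every HO library was below every WT library, as in 29.8% of all genes tested. A fall of 1 or more on the log2 scale was seen in 20 of the 39 and in 7.37% of all genes tested. Pole passed the test when no filter on level was used, with a change of -0.69 ± 0.11 (adjusted p = 0.000545), and then 40 of 40 genes were lower, as were 20.1% of the 24836 genes above 0. In mean FPKM, HO stood at 11.6% (Tk1) to 64.3% (Rrm2) of WT, with a median of 32.8%. The HO mean was under 50% of the WT mean in 34 of the 40 genes and under 25% in 9.

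In DHO against HO all 39 were higher, where 42.8% of all genes tested were higher and 13.4% lower. The median change was 1.02, against 0.25 for all genes, with a range of 0.49 (Gins3) to 2.20 (Tk1). Gins3 is a low gene, whose ratio this scale understates. As a ratio of mean FPKM, DHO over HO was 2.41 for Gins3 and smallest for Rrm2, at 1.57. In 35 of the 39 every DHO library was above every HO library, as in 27.9% of all genes tested, and a rise of 1 or more was seen in 21, as in 7.70% of all genes. This comparison and that of HO with WT share the HO libraries, so their opposite signs are not independent of each other. Without a filter on level the count was 40 of 40, with 20.4% of all genes higher. Where a group of genes is lower in bulk tissue, fewer cells that express them and less of their RNA in each cell cannot be told apart.

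In DHO against WT limma-trend called none of the 39, and 0.159% of all genes tested were lower and 0.0794% higher. At an unadjusted p under 0.05 it gave 1, Orc1, while 6.34% of all genes tested were under it. Limma-voom on the recovered reads also called none, with 0 at an unadjusted p under 0.05 when scaled by library totals and 1 when scaled by median-of-ratios factors. The median change was 0.01 and the range -0.31 to 0.27. DHO means lay between 65.6% (Orc1) and 128% (Ccne2) of WT means, and 36 of the 40 lay between 80% and 125%. The intervals are wide. For Mcm5 the 95% interval of the DHO against WT change ran from -0.54 to 0.45, and for Tk1 it ran from -0.55 to 0.26.

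The scale used moves these shares. With median-of-ratios scaling, which sets the middle of all genes to the same level, the median change of all genes in HO against WT went to -0.03, 38 of the 39 genes were lower with a median of -0.83, and the calls over all genes were 2860 lower and 2494 higher, against 4867 lower and 1406 higher on FPKM as deposited. In DHO against HO the same scaling gave 38 of 39 higher, a median of 0.86 and 0.05 for all genes, with 3140 genes higher and 2543 lower, against 4846 higher and 1513 lower on FPKM as deposited. The backgrounds then were 25.2% lower and 27.7% higher. Relative to the median of all genes, the median of the 39 was -0.75 in HO against WT on FPKM as deposited and -0.80 after that scaling, and in DHO against HO it was 0.77 and 0.82. The gene that dropped out in both was Rrm2.

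**Figure D1:**
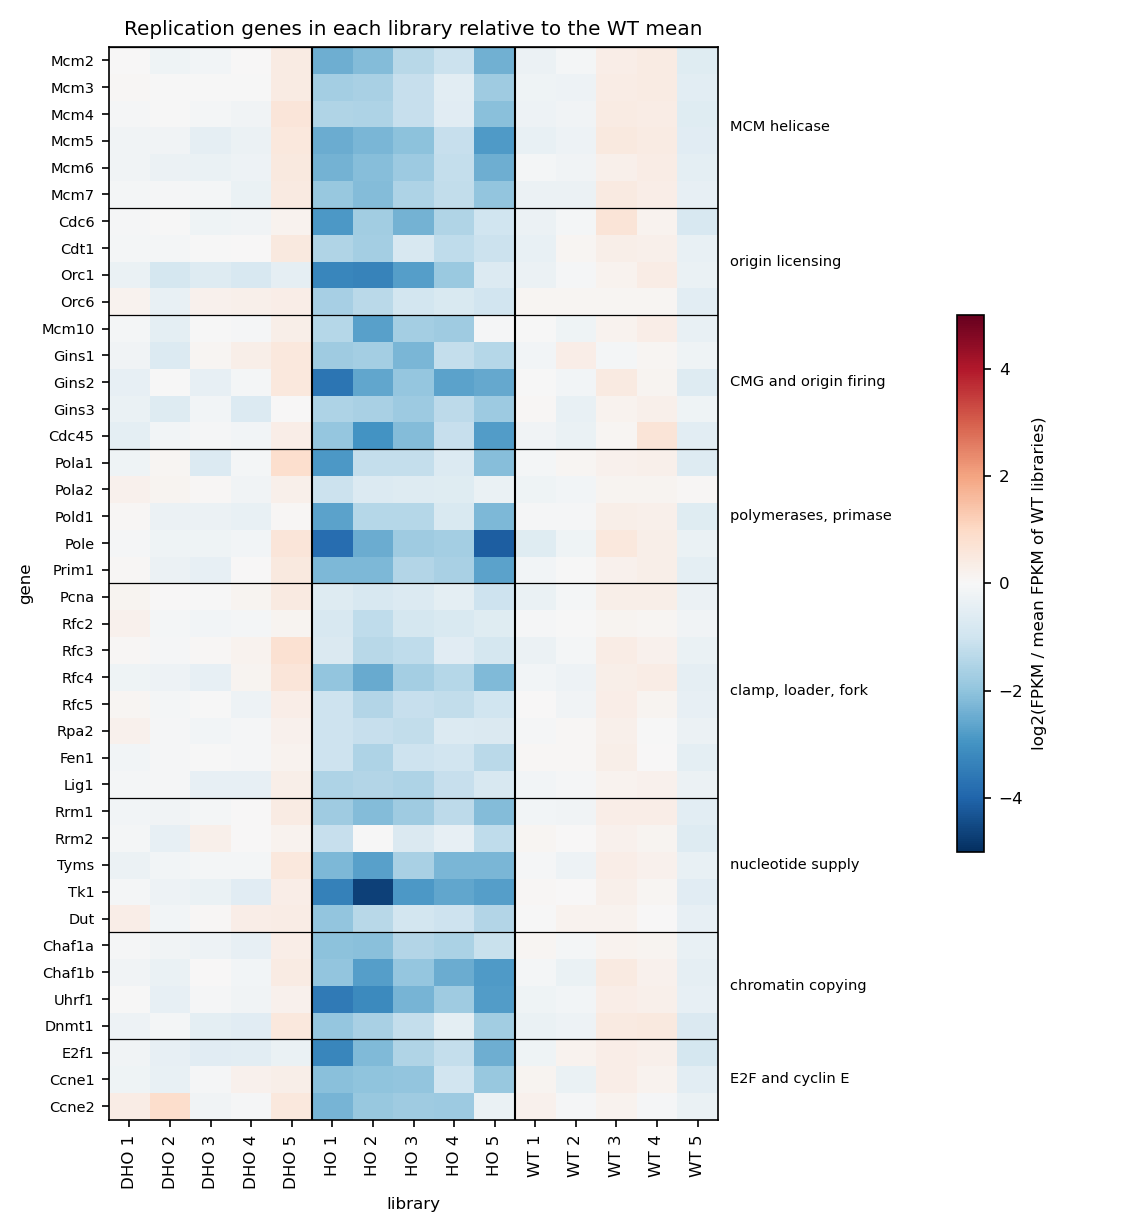
FPKM of the 40 genes in each library as log2 of the ratio to the WT mean, rows ordered by role and columns as DHO, HO and WT; blue is below and red above the WT mean. The 5 HO columns are blue in nearly every row, with HO 4 paler than the others, and DHO 5 is the reddest DHO column.

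**Figure D2:**
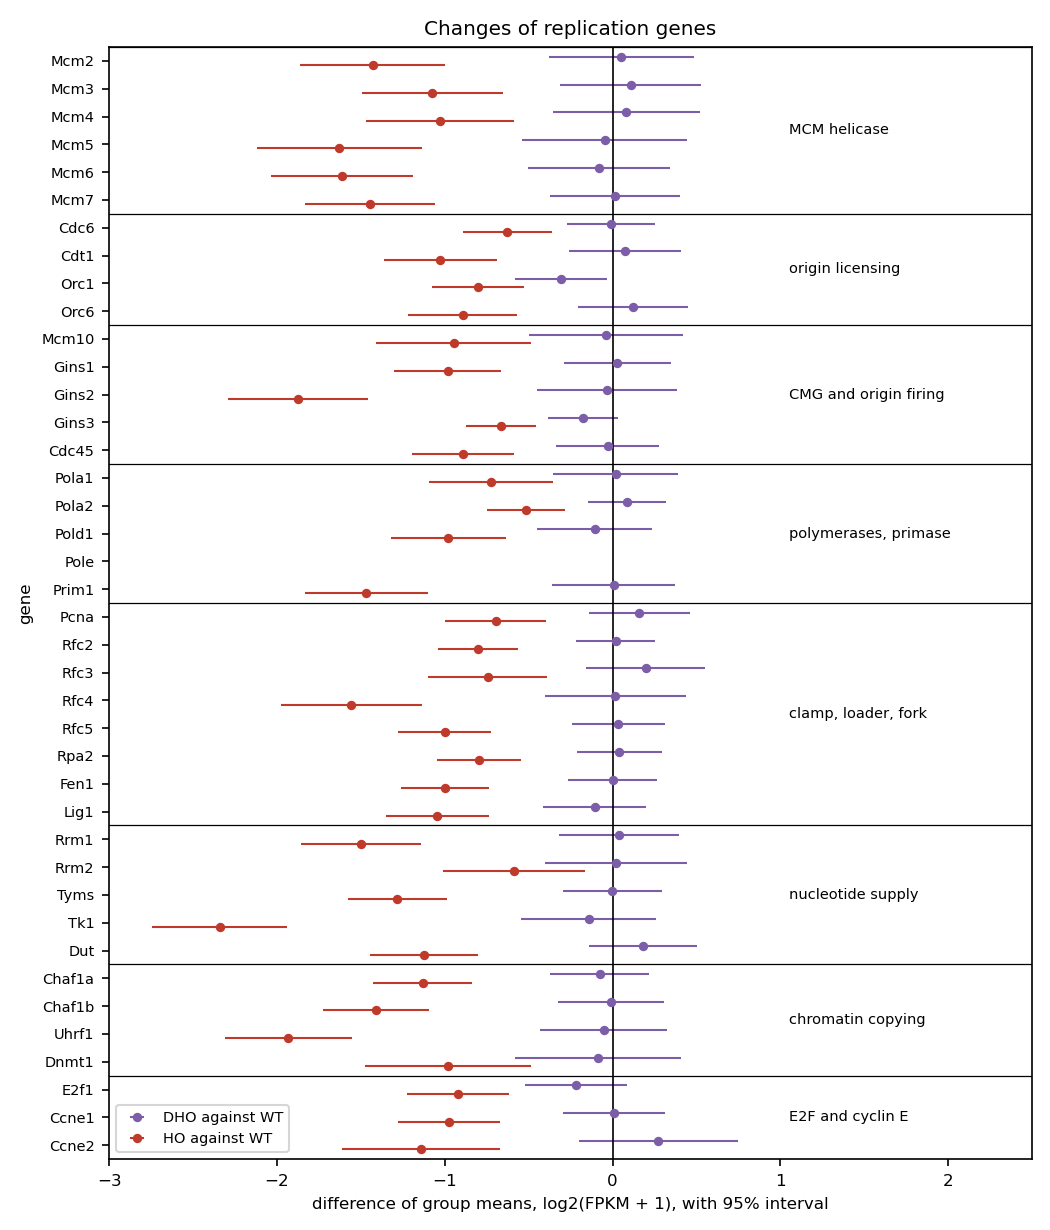
Change in log2(FPKM + 1) for the 39 tested genes in DHO and in HO, each against WT, with 95% intervals from limma-trend; Pole was not tested. The HO points lie between -2.34 and -0.52 and the DHO points between -0.31 and 0.27.

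The promoters of a few of these genes are shown because E2F binding sites are a known feature of replication gene promoters. RefSeq promoters of the mouse build GRCm38.p6, each running from 250 bases before to 50 bases after the annotated start of transcription, were matched by symbol for 34 of the 40 genes. They were searched on both strands for the E2F words TTTGGCGC, TTTGCCGC, TTTCGCGC and TTTCCCGC. Mcm5, Mcm6, Cdc6, Orc1 and Rfc3 are printed because their windows hold such a word, and Tk1 because its RNA fell furthest and its window holds none. Each sequence is given as the RefSeq table has it, 5′ to 3′ on the strand listed for the gene, with the E2F words in capitals. For Mcm5 and Mcm6 the bases tested after the RefSeq start were not found in a GENCODE M21 transcript, since the first transcripts there begin further downstream. The windows are chr8:75109259-75109558 on the plus strand (Mcm5), chr1:128359656-128359955 on the minus strand (Mcm6), chr11:98907901-98908200 on the plus strand (Cdc6), chr4:108579204-108579503 on the plus strand (Orc1), chr5:151651159-151651458 on the minus strand (Rfc3) and chr11:117825965-117826264 on the minus strand (Tk1).
Mcm5: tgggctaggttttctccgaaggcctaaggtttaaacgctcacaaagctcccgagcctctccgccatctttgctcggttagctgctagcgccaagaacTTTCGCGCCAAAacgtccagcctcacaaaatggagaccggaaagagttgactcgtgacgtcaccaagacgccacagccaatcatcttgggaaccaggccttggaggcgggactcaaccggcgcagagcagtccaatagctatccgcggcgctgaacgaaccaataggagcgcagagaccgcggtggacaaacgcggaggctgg
Mcm6: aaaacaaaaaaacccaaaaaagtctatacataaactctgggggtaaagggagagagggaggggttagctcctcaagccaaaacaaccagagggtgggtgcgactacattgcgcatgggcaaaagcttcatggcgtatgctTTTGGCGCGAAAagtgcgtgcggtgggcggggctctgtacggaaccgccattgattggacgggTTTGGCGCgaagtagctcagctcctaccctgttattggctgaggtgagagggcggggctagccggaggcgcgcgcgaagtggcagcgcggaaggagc
Cdc6: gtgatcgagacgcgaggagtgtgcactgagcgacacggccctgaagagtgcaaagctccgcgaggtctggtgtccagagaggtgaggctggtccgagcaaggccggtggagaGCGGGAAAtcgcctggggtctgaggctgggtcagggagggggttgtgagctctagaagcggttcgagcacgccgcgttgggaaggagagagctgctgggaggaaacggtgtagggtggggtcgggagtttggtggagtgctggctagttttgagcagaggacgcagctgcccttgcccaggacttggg
Orc1: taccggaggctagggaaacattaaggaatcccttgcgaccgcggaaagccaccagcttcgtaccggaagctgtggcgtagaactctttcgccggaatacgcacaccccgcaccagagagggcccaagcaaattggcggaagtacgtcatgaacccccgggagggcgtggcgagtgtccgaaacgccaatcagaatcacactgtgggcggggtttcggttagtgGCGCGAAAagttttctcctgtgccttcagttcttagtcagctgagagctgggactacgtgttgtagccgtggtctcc
Rfc3: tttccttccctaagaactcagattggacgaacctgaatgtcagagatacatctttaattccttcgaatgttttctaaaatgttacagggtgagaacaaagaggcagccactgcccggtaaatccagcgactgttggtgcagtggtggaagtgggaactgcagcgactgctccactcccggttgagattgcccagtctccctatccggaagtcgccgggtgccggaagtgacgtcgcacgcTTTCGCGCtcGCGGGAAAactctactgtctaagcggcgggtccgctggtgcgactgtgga
Tk1: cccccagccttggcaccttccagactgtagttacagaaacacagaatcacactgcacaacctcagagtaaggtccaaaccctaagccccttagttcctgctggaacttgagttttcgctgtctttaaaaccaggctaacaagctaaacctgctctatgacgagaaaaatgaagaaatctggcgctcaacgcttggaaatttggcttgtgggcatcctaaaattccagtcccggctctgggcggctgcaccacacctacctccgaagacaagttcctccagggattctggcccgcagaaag

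An E2F word was found in the promoters of 14 of the 34 genes matched (41.2%), against 4.51% of the 9098 tested genes with a promoter in the table and 2.60% of all 27025 genes in it. The 14 genes held 21 words, 4 of them within 100 bases before the start and 8 after it. In Mcm5 and Mcm6 a word on one strand overlaps a word on the other, which gives the long capital runs printed above. The word of Orc1 begins 27 bases before the start, and those of Rfc3 lie on either side of the start. CCAAT, the word bound by NF-Y and common in promoters of mitotic genes, was found in 20 of the 34 genes (58.8%), in 16 of 19 genes of a mitosis list (84.2%) and in 42.6% of tested genes. The same mitosis list held an E2F word in 1 of 19 genes (5.26%). In 1 promoter, that of Mcm7, an E2F word and CCAAT overlap. A match of letters is a description of the window and does not show a bound factor.

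**Figure D3:**
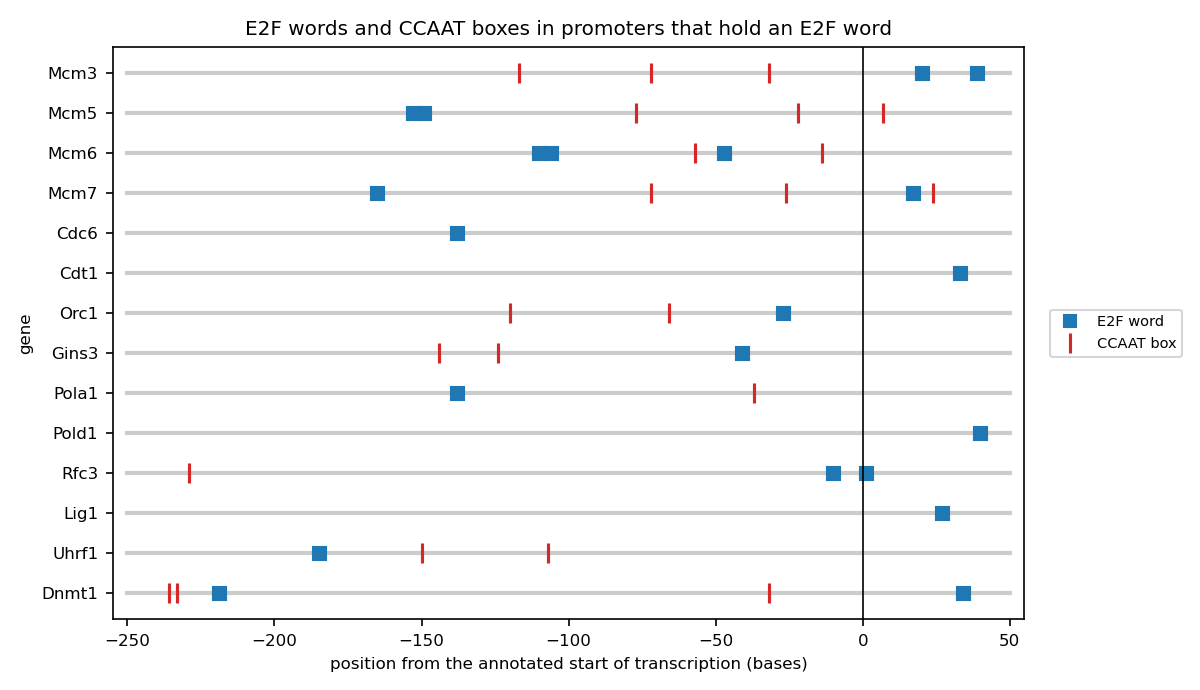
Positions of E2F words (squares) and CCAAT (red bars) on either strand in the 14 promoters that hold an E2F word, in bases from the annotated start of transcription at 0; grey lines are the windows searched. The words lie on both sides of the start, and 4 fall within 100 bases before it, in Mcm6, Orc1, Gins3 and Rfc3.

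The Mcm helicase unwinds DNA at the fork, and the subunits Mcm2 to Mcm7 form its ring. All 6 fell in HO, to 24.3% to 41.1% of WT means, and all 6 rose in DHO against HO. Of all genes tested, 42.9% were lower in HO than in WT and 42.8% higher in DHO than in HO. Mcm6 read 9.17, 8.39, 8.09, 8.53 and 14.5 FPKM in DHO 1 to 5, 2.01, 2.34, 2.94, 4.56 and 1.88 in HO 1 to 5, and 9.66, 9.06, 12.2, 13.2 and 7.43 in WT 1 to 5. Every HO library lay below every library of the other groups, and DHO and WT overlapped. Its change was -1.61 ± 0.20 (SE) in HO against WT (adjusted p = 1.81e-05), 1.53 ± 0.20 in DHO against HO (adjusted p = 2.51e-05) and -0.08 ± 0.20 in DHO against WT (adjusted p = 1). Mcm7 read 10.1, 10.2, 10.1, 8.54 and 14.8 FPKM in DHO, 2.93, 2.41, 3.68, 4.61 and 2.75 in HO, and 8.85, 8.88, 14.5, 13.5 and 8.08 in WT. Again HO stood clear of both other groups. The Mcm7 change was -1.45 ± 0.18 in HO against WT (adjusted p = 2.05e-05) and 1.46 ± 0.18 in DHO against HO (adjusted p = 1.82e-05). Mcm5 and Mcm2 fell by 1.63 and 1.43 on the log2 scale in HO, and Mcm3 and Mcm4 by 1.07 and 1.03. In the last pair HO and WT touched, since HO 4 read 5.35 FPKM of Mcm3 and 4.18 of Mcm4 while WT 5 read 5.30 and 4.08.

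Licensing loads that ring at origins. Orc1 and Orc6 are subunits of the origin recognition complex, Cdc6 joins them on the DNA, and Cdt1 brings the helicase. HO means of these 4 genes were 24.9% to 46.9% of WT means. Cdt1 read 7.03, 7.14, 7.51, 7.59 and 10.5 FPKM in DHO, 2.63, 2.32, 4.37, 3.10 and 3.55 in HO, and 5.78, 8.03, 9.18, 8.94 and 5.85 in WT. HO did not overlap either group. Its change was -1.03 ± 0.16 in HO against WT (adjusted p = 0.000104) and 1.10 ± 0.16 in DHO against HO (adjusted p = 5.66e-05). Orc1, low throughout, read 1.00, 0.690, 0.808, 0.737 and 0.943 FPKM in DHO, 0.133, 0.127, 0.188, 0.352 and 0.789 in HO, and 1.05, 1.23, 1.43, 1.65 and 1.01 in WT. Its DHO libraries all lay below its WT libraries, which was so for no other of the 39 genes and for 1.96% of all genes tested. HO 5 lay among the DHO values. The Orc1 change was -0.80 ± 0.13 in HO against WT (adjusted p = 0.000146), 0.50 ± 0.13 in DHO against HO (adjusted p = 0.00439) and -0.31 ± 0.13 in DHO against WT (95% interval -0.58 to -0.03, adjusted p = 0.681). Without DHO 1, HO 2 and HO 4 the DHO against HO change of Orc1 was 0.42 and did not pass (adjusted p = 0.0572). On the log2(FPKM + 1) scale, which understates ratios of low genes, Cdc6 fell by 0.63 in HO and Orc6 by 0.89. In mean FPKM the order was the other way, with HO at 29.9% of WT for Cdc6 and 46.9% for Orc6.

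Firing turns the loaded helicase on. Gins1, Gins2 and Gins3 encode subunits of the GINS complex, Cdc45 joins it, and Mcm10 helps to activate the helicase. HO means were 16.6% to 41.8% of WT means. Gins2 read 5.14, 6.80, 5.24, 6.54 and 9.97 FPKM in DHO, 0.555, 1.13, 1.83, 1.07 and 1.17 in HO, and 6.81, 6.29, 9.33, 7.66 and 4.43 in WT. The highest HO library was far below the lowest of the others. Its change was -1.87 ± 0.20 in HO against WT (adjusted p = 5.12e-06) and 1.84 ± 0.20 in DHO against HO (adjusted p = 5.49e-06). Exons of Gins2 share up to 2758 bases with an exon of Gse1 on the other strand, the longest such overlap among the 12 of the 40 genes that have one with a coding gene. Whether counting used strand is not given in the sources used here, so reads there cannot be told apart. Gins3, near 1 FPKM, read 0.969, 0.780, 1.11, 0.765 and 1.25 FPKM in DHO, 0.426, 0.401, 0.347, 0.503 and 0.346 in HO, and 1.28, 0.953, 1.41, 1.48 and 1.05 in WT. HO was again apart. Its change was -0.66 ± 0.10 in HO against WT (adjusted p = 7.45e-05) and 0.49 ± 0.10 in DHO against HO (adjusted p = 0.000745). Cdc45 and Gins1 fell by 0.89 and 0.98 in HO.

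Polymerases make the new strands. Prim1 is the catalytic subunit of the primase that lays RNA primers, Pola1 and Pola2 belong with it to polymerase alpha, and Pold1 and Pole are the catalytic subunits of polymerases delta and epsilon. Prim1 read 6.00, 4.75, 4.38, 5.83 and 8.18 FPKM in DHO, 1.21, 1.23, 2.06, 1.86 and 0.891 in HO, and 5.27, 5.69, 6.72, 7.05 and 4.07 in WT. No HO library reached those of the other groups. Its change was -1.47 ± 0.17 in HO against WT (adjusted p = 1.22e-05) and 1.48 ± 0.17 in DHO against HO (adjusted p = 1.11e-05). Pold1 read 2.90, 2.32, 2.28, 2.15 and 2.91 FPKM in DHO, 0.437, 1.05, 1.04, 1.67 and 0.594 in HO, and 2.71, 2.71, 3.42, 3.36 and 1.85 in WT. HO 4 came close to WT 5 without reaching it. The Pold1 change was -0.98 ± 0.16 in HO against WT (adjusted p = 0.000181) and 0.87 ± 0.16 in DHO against HO (adjusted p = 0.000396). Pole read 0.837, 0.747, 0.753, 0.794 and 1.34 FPKM in DHO, 0.0632, 0.157, 0.259, 0.273 and 0.0497 in HO, and 0.572, 0.764, 1.27, 1.07 and 0.702 in WT. Its HO values rest on 14 to 77 reads per library, and none reached a DHO or WT value. Pola2 kept the most of the 5 genes, with an HO mean of 63.7% of the WT mean, and fell by 0.52 on the log2 scale.

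At the fork, Pcna is the sliding clamp, Rfc2 to Rfc5 are subunits of the clamp loader, Rpa2 coats single-stranded DNA, and Fen1 and Lig1 trim and join the fragments of the lagging strand. All 8 fell in HO and rose in DHO against HO, and in all 8 HO stood apart from both groups. Of all genes tested, 42.9% were lower in HO than in WT and 42.8% higher in DHO than in HO. Every HO library was below every WT library in 29.8% of them and below every DHO library in 27.9%. HO means were 26.4% to 60.6% of WT means, with a median of 48.2%, the highest median of the 8 roles. Fen1 read 8.28, 8.79, 9.00, 8.74 and 10.2 FPKM in DHO, 4.38, 3.10, 4.43, 4.68 and 3.57 in HO, and 9.45, 9.37, 11.0, 9.10 and 6.53 in WT. Its values hardly varied inside DHO. The change was -0.998 ± 0.124 in HO against WT (adjusted p = 1.88e-05) and 0.998 ± 0.124 in DHO against HO (adjusted p = 1.82e-05). Rfc4 read 7.65, 7.39, 6.66, 9.81 and 13.6 FPKM in DHO, 2.26, 1.53, 2.71, 3.26 and 1.89 in HO, and 8.09, 7.35, 10.9, 11.4 and 6.44 in WT. It fell furthest of the 8. The change was -1.56 ± 0.20 in HO against WT (adjusted p = 2.10e-05) and 1.57 ± 0.20 in DHO against HO (adjusted p = 1.88e-05). Pcna, the gene of the 40 with the most FPKM, averaged 72.2 ± 9.59 FPKM in DHO, 39.5 ± 5.66 in HO and 65.3 ± 13.4 in WT (SD, n = 5 each). It was chosen for its level, and its change was -0.70 in HO against WT and 0.86 in DHO against HO. Pcna and Tyms have processed pseudogenes named for them in GENCODE M21, so some of their reads may be shared.

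Nucleotide supply gave both the largest and the smallest HO levels relative to WT. Tk1, the cytosolic thymidine kinase, read 8.93, 8.21, 7.67, 6.54 and 12.2 FPKM in DHO, 0.930, 0.378, 1.32, 1.58 and 1.42 in HO, and 10.2, 9.86, 11.5, 10.3 and 6.48 in WT. The gap between HO and either group was wide. Its change was -2.34 ± 0.19 in HO against WT (adjusted p = 8.63e-07), 2.20 ± 0.19 in DHO against HO (adjusted p = 1.45e-06) and -0.14 ± 0.19 in DHO against WT (adjusted p = 1). Tyms, the thymidylate synthase, read 2.54, 2.82, 2.92, 2.91 and 4.49 FPKM in DHO, 0.666, 0.480, 1.02, 0.651 and 0.635 in HO, and 3.02, 2.62, 3.97, 3.65 and 2.41 in WT. HO was clear of both groups. The Tyms change was -1.28 ± 0.14 in HO against WT (adjusted p = 6.48e-06) and 1.28 ± 0.14 in DHO against HO (adjusted p = 6.04e-06). Dut, the dUTPase that keeps uracil out of DNA, fell by 1.12 in HO.

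Ribonucleotide reductase makes the deoxynucleotides for replication. Its subunits were chosen after their values were seen. Rrm1, the large subunit, read 9.35, 9.13, 9.66, 10.3 and 13.8 FPKM in DHO, 3.00, 2.27, 3.01, 4.17 and 2.30 in HO, and 9.39, 9.09, 12.9, 12.8 and 7.09 in WT. Rrm2, the small subunit that is degraded outside S phase, read 8.08, 6.61, 10.4, 8.97 and 9.98 FPKM in DHO, 3.94, 8.66, 5.27, 6.62 and 3.66 in HO, and 9.44, 8.80, 10.1, 9.74 and 5.63 in WT. Rrm1 stood apart in HO, and Rrm2 did not. In HO the Rrm2 to Rrm1 ratio of FPKM was 1.31, 3.82, 1.75, 1.59 and 1.59, above every DHO ratio (0.721 to 1.08) and every WT ratio (0.761 to 1.01). Rrm1 changed by -1.50 ± 0.17 in HO against WT (adjusted p = 8.75e-06), and Rrm2 by -0.59 ± 0.20 (adjusted p = 0.0209). The difference between the genes was not tested. The Rrm2 call did not hold with median-of-ratios scaling (-0.36, adjusted p = 0.153), or without WT 3 (-0.53, adjusted p = 0.0517), HO 1 (-0.50, adjusted p = 0.0511) or HO 5 (-0.47, adjusted p = 0.0519). Over the fits that each left out 1 library its adjusted p in HO against WT ran from 0.00443 to 0.0519. HO 2 and HO 4, the HO libraries with the most Rrm2, are those with high B cell genes, while DHO 1, also high in B cell genes, was the second lowest DHO library for Rrm2. Without DHO 1, HO 2 and HO 4, a fit that leaves out the highest HO values, the Rrm2 change in HO against WT was -0.87 (adjusted p = 0.00325). The part of B cells in the Rrm2 level was not tested. Rrm2b, the other small subunit, which is induced through p53, averaged 1.33 ± 0.36 FPKM in DHO, 2.04 ± 0.81 in HO and 1.40 ± 0.24 in WT (SD, n = 5 each), with a change of 0.31 in HO against WT that did not pass (adjusted p = 0.130).

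**Figure D4:**
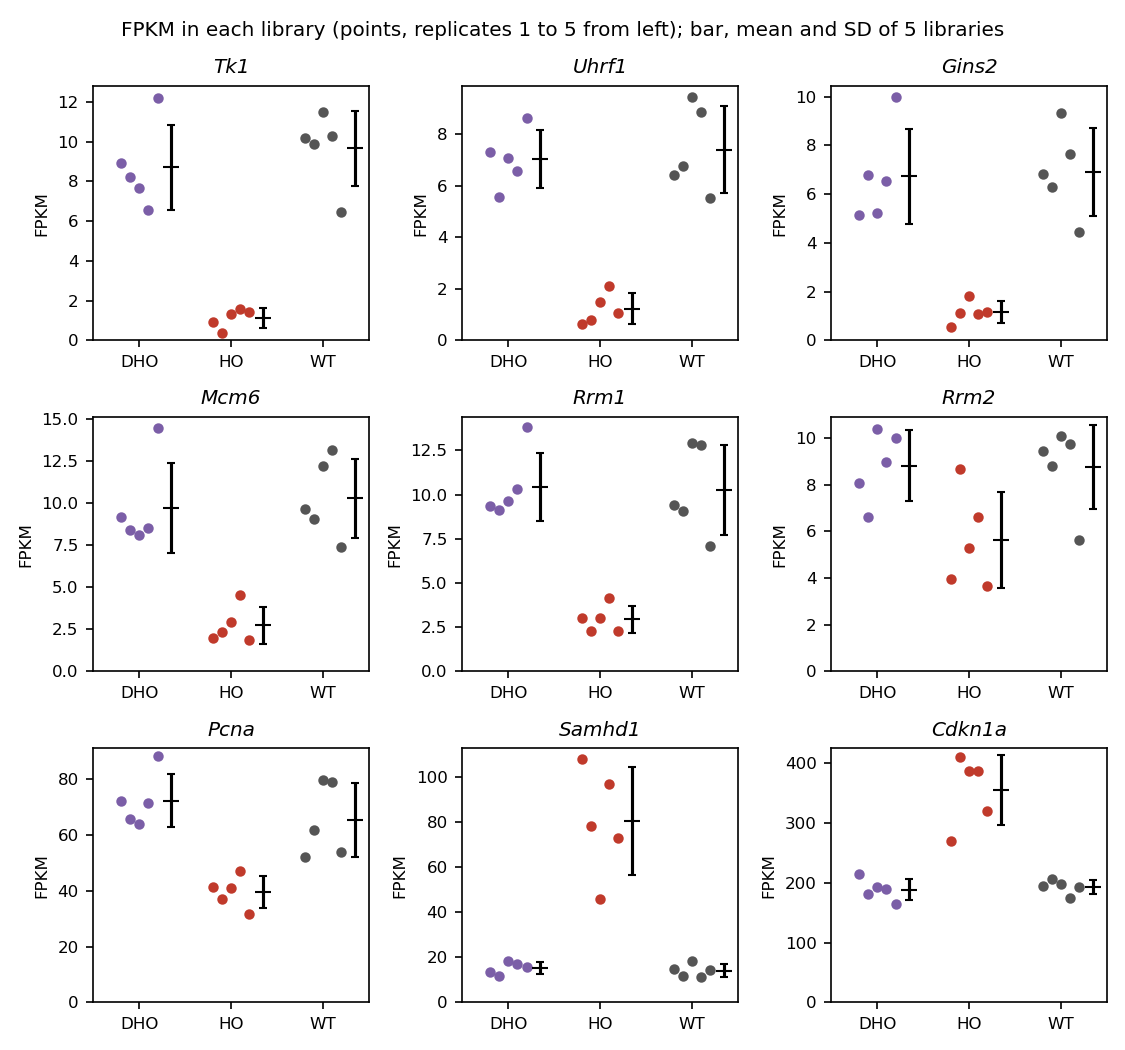
FPKM of single genes in each library (points) with the mean and SD of each group, in the order DHO, HO, WT, each panel with its own linear axis from 0. For Tk1, Uhrf1, Gins2, Mcm6, Rrm1 and Pcna every HO library is below every other library, for Rrm2 the HO libraries overlap both other groups, and for Samhd1 and Cdkn1a every HO library is above.

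Behind the fork chromatin is rebuilt and its methylation copied. Chaf1a and Chaf1b are subunits of chromatin assembly factor 1, Dnmt1 is the maintenance DNA methyltransferase, and Uhrf1 recruits it to hemimethylated DNA. Uhrf1 read 7.32, 5.55, 7.08, 6.57 and 8.63 FPKM in DHO, 0.633, 0.807, 1.48, 2.13 and 1.07 in HO, and 6.42, 6.76, 9.43, 8.88 and 5.51 in WT. HO was well below both groups. Its change was -1.93 ± 0.18 in HO against WT (adjusted p = 2.06e-06) and 1.88 ± 0.18 in DHO against HO (adjusted p = 2.33e-06). Chaf1b read 3.15, 2.83, 3.66, 3.26 and 4.77 FPKM in DHO, 0.913, 0.539, 0.947, 0.635 and 0.511 in HO, and 3.36, 2.86, 4.91, 4.20 and 2.63 in WT. Here too the groups were apart. The Chaf1b change was -1.41 ± 0.15 in HO against WT (adjusted p = 5.35e-06) and 1.40 ± 0.15 in DHO against HO (adjusted p = 5.26e-06). Dnmt1, whose HO 4 value of 3.51 FPKM lay among DHO and WT values, fell by 0.98 in HO (adjusted p = 0.00255) and rose by 0.89 in DHO against HO (adjusted p = 0.00448).

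The regulators that bring cells into S phase followed. E2f1 is an activator of the replication genes, and cyclins E, from Ccne1 and Ccne2, drive the kinase that starts S phase. Ccne1 read 2.09, 1.89, 2.36, 2.82 and 3.01 FPKM in DHO, 0.563, 0.598, 0.617, 1.25 and 0.660 in HO, and 2.67, 1.93, 3.09, 2.74 and 1.69 in WT. HO 4 was the highest of HO and still below every DHO and WT library. Its change was -0.98 ± 0.14 in HO against WT (adjusted p = 6.95e-05) and 0.99 ± 0.14 in DHO against HO (adjusted p = 6.12e-05). E2f1 read 1.59, 1.36, 1.21, 1.24 and 1.44 FPKM in DHO, 0.186, 0.394, 0.636, 0.783 and 0.335 in HO, and 1.54, 2.04, 2.27, 2.15 and 0.987 in WT. HO lay below both groups, and WT spread widely. The E2f1 change was -0.92 ± 0.14 in HO against WT (adjusted p = 0.000106), 0.70 ± 0.14 in DHO against HO (adjusted p = 0.000779) and -0.22 ± 0.14 in DHO against WT (adjusted p = 0.98). Ccne2 changed by -1.14 ± 0.22 in HO against WT (adjusted p = 0.000617) and by 1.42 ± 0.22 in DHO against HO (adjusted p = 0.000108).

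The libraries of a group shared high and low levels across the genes. Over the 40 genes the median level as a percent of the WT mean was 93.4, 89.6, 92.7, 92.8 and 130 in DHO 1 to 5, 25.8, 28.4, 34.9, 44.0 and 28.4 in HO 1 to 5, and 91.7, 92.8, 122, 119 and 73.1 in WT 1 to 5. DHO 5 was the highest DHO library for 35 of the 40 genes, HO 4 the highest HO library for 24, WT 3 the highest WT library for 26 and WT 5 the lowest for 35. A list of 10 intestinal stem cell genes was read in a like way, but over only the 8 that were tested. Its median level as a percent of the WT mean was 101, 84.1, 79.6, 85.1 and 131 in DHO 1 to 5, 30.5, 46.0, 56.3, 34.1 and 42.7 in HO 1 to 5, and 70.3, 91.3, 126, 146 and 69.5 in WT 1 to 5. DHO 5, WT 3 and WT 4 were the high libraries and WT 5 the lowest WT library for both lists, while in HO the stem cell list was highest in HO 3 and the replication genes in HO 4. Of the 8 stem cell genes tested, 5 were lower in HO than in WT, beside 42.9% of all genes tested. In DHO against HO 5 of the 8 were higher, beside 42.8%. Olfm4, a gene of crypt stem cells chosen after its values were seen, read 56.9, 78.5, 89.4, 110 and 152 FPKM in DHO, 3.15, 0.259, 6.88, 0.248 and 2.47 in HO, and 83.0, 94.9, 195, 180 and 47.0 in WT. Its change in HO against WT, -5.24, was the largest of the 8, beside -0.76 for Lgr5 and -1.14 for Ascl2. Smoc2 (0.31, adjusted p = 0.399), Axin2 (-0.47, adjusted p = 0.155) and Rnf43 (-0.38, adjusted p = 0.0541) did not pass. The part of crypt cell number in the levels of the replication genes was not tested.

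Marker lists of other cell types were set beside the same shares of all genes tested. The summed level of 11 epithelial genes was 9530 to 11500 FPKM in DHO, 8160 to 10800 in HO and 11100 to 12300 in WT. Every HO sum was below every WT sum. Of the 11, 4 were lower in HO than in WT: Krt19 (-1.72), Cdx2 (-1.11), Cdx1 (-1.07) and Krt8 (-0.88). Cdh1 was the 1 that was higher (0.28). In DHO against HO 6 of the 11 were higher and 1 lower. For T cells the sum of 9 genes was 17.0 to 24.1 FPKM in DHO, 22.6 to 55.4 in HO and 35.2 to 47.4 in WT, and of the 8 tested 3 were lower in HO than in WT, 3 lower in DHO than in HO and 4 lower in DHO than in WT. For 10 smooth muscle genes the sums were 438 to 1320 FPKM in DHO, 392 to 1740 in HO and 172 to 1160 in WT, and 4 of the 10 were higher in HO than in WT. Their changes in DHO against HO, -1.02 to 0.11, did not pass. For 10 macrophage genes the sums were 104 to 283 FPKM in DHO, 145 to 713 in HO and 171 to 333 in WT, and 2 of the 10 were higher in HO than in WT and 6 lower in DHO than in HO. The sums of muscle and macrophage genes overlapped between all groups. In HO against WT, 42.9% of all genes tested were lower and 12.4% higher, and in DHO against HO 13.4% were lower and 42.8% higher. In DHO against WT only 0.159% were lower and 0.0794% higher, beside the 4 of 8 T cell genes that were lower. The part of these cell types in the results was not tested.

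**Figure D5:**
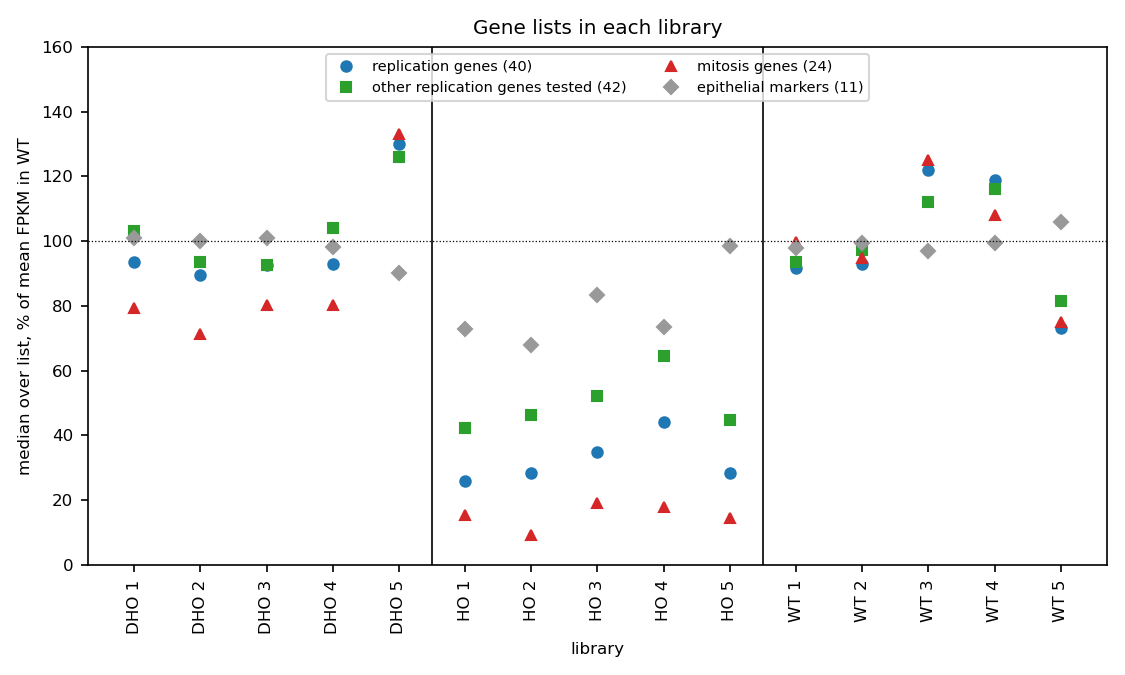
Median level of 4 gene sets in each library as a percent of the WT mean, libraries in the order DHO, HO and WT on a linear axis from 0. For the 40 replication genes HO libraries lie between 25.8% and 44.0%, below every DHO library (89.6% to 130%) and WT library (73.1% to 122%), and the mitosis list lies lower still in HO.

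HO 5 departed from the other HO libraries in a few genes. It is described after its values were seen. It was the lowest HO library for 10 of the 40 genes, Mcm5 among them with 1.18 FPKM, yet the highest for 9. Mcm10 read 3.19, 2.43, 3.41, 3.32 and 4.27 FPKM in DHO, 1.29, 0.519, 1.07, 0.999 and 3.32 in HO, and 3.42, 2.95, 3.87, 4.28 and 2.69 in WT. Ccne2 read 6.36, 8.96, 4.36, 4.67 and 7.10 FPKM in DHO, 0.992, 1.31, 1.45, 1.39 and 3.93 in HO, and 5.65, 4.77, 5.47, 4.77 and 3.88 in WT. HO 5 reached the other groups for Mcm10 and the lowest WT library for Ccne2, and it did not for Mcm6. The Mcm10 to Mcm6 ratio of FPKM was 1.76 in HO 5, against 0.219 to 0.642 in the other HO libraries, 0.289 to 0.422 in DHO and 0.318 to 0.363 in WT. Axin2, a target gene of Wnt signalling, read 30.3 FPKM in HO 5, against 6.03 to 12.4 in the other HO libraries, 16.4 to 20.2 in DHO and 15.1 to 18.1 in WT. HO 5 also had the highest epithelial sum of HO, 10800 FPKM.

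The spread inside groups bears on how firmly single genes can be read. The coefficient of variation of FPKM over 5 libraries had a median of 20% in DHO, 35.2% in HO and 22.1% in WT. Its highest values were 41.4%, 87.7% and 36.8%. The HO maximum was that of Orc1, and it comes from HO 5.

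Replication genes outside the 40 were taken from a list of 50, of which 42 were tested. Of all genes tested 42.9% were lower in HO than in WT, with a median change of -0.25. In DHO against HO 42.8% were higher, with a median of 0.25. Of the 42, 35 were lower and 1 was higher in HO against WT, with a median change of -0.67. In DHO against HO 35 of the 42 were higher and 1 was lower, with a median of 0.74. None was called in DHO against WT. Shmt1, which makes folate units for thymidylate, averaged 7.28 ± 1.76 FPKM in DHO, 0.968 ± 0.527 in HO and 7.29 ± 1.90 in WT (SD, n = 5 each), with a change of -2.08 ± 0.20 in HO against WT (adjusted p = 2.33e-06). Dctpp1, a pyrophosphatase that cleans the nucleotide pool, fell by 1.81, Asf1b, a histone chaperone, by 1.71, and Dbf4, the activator of the kinase that fires origins, by 1.26. Pole4 and Pold4, small subunits of polymerases epsilon and delta, did not pass in HO against WT, with changes of -0.05 (adjusted p = 0.682) and -0.18 (adjusted p = 0.327).

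The gene of that list that rose is Samhd1, a dNTP hydrolase known to lower nucleotide pools outside S phase and to be induced by interferon. Samhd1 read 13.7, 11.8, 18.5, 16.9 and 15.9 FPKM in DHO, 108, 78.2, 45.8, 96.7 and 73.1 in HO, and 15.0, 11.7, 18.4, 11.2 and 14.4 in WT. HO stood above both groups, and these overlapped. Its change was 2.39 ± 0.20 in HO against WT (adjusted p = 1.14e-06), -2.28 ± 0.20 in DHO against HO (adjusted p = 1.74e-06) and 0.12 ± 0.20 in DHO against WT (adjusted p = 1).

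A list of 30 genes of G1 and S control, 29 of them tested, had 19 lower and 1 higher in HO against WT. The median change of the 29 was -0.48, against -0.25 for all genes tested, of which 42.9% were lower. In DHO against HO 19 of the 29 were higher and 1 lower, where 42.8% of all genes tested were higher. The median was 0.58, against 0.25 for all genes, and in DHO against WT none of the 29 was called. E2f8, a repressor that is itself a target of E2F, averaged 3.25 ± 0.78 FPKM in DHO, 0.393 ± 0.144 in HO and 3.76 ± 0.78 in WT (SD, n = 5 each), a change of -1.76 ± 0.14 in HO against WT (adjusted p = 7.9e-07). Cdk4, the kinase that acts with D cyclins, fell by 1.30, Fbxo5, an inhibitor of the anaphase-promoting complex, by 1.24, and Tfdp1, the partner of E2F proteins, by 1.01. Cdkn1a, which encodes the inhibitor p21, read 215, 181, 192, 190 and 165 FPKM in DHO, 270, 410, 387, 386 and 320 in HO, and 195, 206, 198, 174 and 192 in WT. Every HO library was above every other library. The Cdkn1a change was 0.86 ± 0.11 in HO against WT (adjusted p = 3.3e-05) and -0.89 ± 0.11 in DHO against HO (adjusted p = 2.2e-05). Other inhibitor genes of the list went the other way in HO against WT. Cdkn2b changed by -1.105 (adjusted p = 0.0011), Cdkn2c by -0.88 (adjusted p = 0.00287) and Cdkn1b by -0.61 (adjusted p = 0.00731). Cdkn1c, Cdkn2a and Cdkn2d did not pass. Ccnd3 and Rb1, a D cyclin and the retinoblastoma protein, changed by 0.21 and -0.21 in HO against WT, which did not pass (adjusted p = 0.238 and 0.133).

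Mitosis genes, which act after replication, were lower still in HO. All 24 of a list of 24 fell in HO against WT, beside 42.9% of all genes tested, with a median change of -1.81. All 24 rose in DHO against HO, beside 42.8% of all genes tested, with a median of 1.68. In each of the 5 HO libraries the median of the mitosis list, 9.06% to 19.2% of the WT mean, lay below that of the 40 replication genes. Ccnb2, a B-type cyclin, averaged 14.2 ± 3.88 FPKM in DHO, 1.90 ± 0.46 in HO and 16.1 ± 3.21 in WT (SD, n = 5 each), a change of -2.55 ± 0.17 in HO against WT (adjusted p = 2.16e-07). Kif23, a kinesin of cell division, fell by 1.79. The mitosis median was 71.4% to 80.4% of the WT mean in DHO 1 to 4 and 133% in DHO 5, and none of the 24 was called in DHO against WT.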

How the data were processed

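Total RNA of ileum was extracted with TRIzol and sequenced from a VAHTS library kit, per the labels' protocols, and the submitters' processing notes name fastp, HISAT2, HTSeq and mm10, with versions not given in the sources used here. The table deposited by the authors holds FPKM for 25329 genes, a unit read from the values: for 100% of the 24836 genes above 0 the values are whole reads, within 0.02 of a read, times a step set by gene and library. The reads carry no molecular identifiers, so a number of reads is not a number of molecules. From the table, log2(FPKM + 1) of genes that reached 1 FPKM in 5 or more libraries was fitted with limma-trend, robust (limma 3.58.1, R 4.3.3), as group means of all 15 libraries, two-sided, with calls at an adjusted p (Benjamini-Hochberg) below 0.05. The 40 genes, the other lists and the promoter search were chosen with earlier results of these data known. Replicates are numbered in accession order, and nothing ties them to separate litters or batches, so p-values measure the spread between these libraries. Genes given in full are the 2 of each role with the smallest p in HO against WT, which favours genes with clear changes, and exceptions are named as chosen after their values were seen. Other list genes were taken by the same order of p, with genes that did not pass beside them. Alternatives were pseudocounts of 0.1 and 0.5, no filter or 5 FPKM, quantile and median-of-ratios scaling, limma-voom on the recovered reads, a fit of 2 groups, array weights, and leaving out libraries.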

Additional observations from a re-analysis of the deposited data

Results flagged for a closer look

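For each of the 40 genes and each group of 5 libraries, the highest and lowest library was set against the others. In 15 of the 120 sets the gap to the nearest library was over 0.71 of the whole range, where chance gives about 1 in 20 sets, and the sets are not independent because they share libraries. DHO 5 stood above the other DHO libraries for Mcm3 (10.3 FPKM), Mcm4 (9.39), Mcm5 (12.0), Mcm6 (14.5), Cdt1 (10.5), Rfc3 (9.57), Pole (1.34), Rrm1 (13.8) and Tyms (4.49). WT 5 stood below the other WT libraries for Orc6 (4.54 FPKM), Rrm2 (5.63) and Tk1 (6.48). DHO 2 stood below the other DHO libraries for Orc6 (5.02 FPKM). In HO, Ccne1 was high in HO 4 (1.25 FPKM) and Ccne2 in HO 5 (3.93 FPKM). Of these 15 values, 12 belong to DHO 5 or WT 5, the libraries with the highest and lowest median level of the 40 genes outside HO.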

How the results depend on the processing

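Among the 39 genes tested, the direction of every call in HO against WT and in DHO against HO was kept under each alternative run, and a call was lost for Rrm2 and Orc1 only. Rrm2 in HO against WT lost its call with quantile scaling (-0.33, adjusted p = 0.172), limma-voom with median-of-ratios factors (-0.42, adjusted p = 0.147) and without HO 1, DHO 3 and DHO 4 (-0.50, adjusted p = 0.0615). In DHO against HO it lost it with quantile scaling (0.34, adjusted p = 0.158), median-of-ratios scaling (0.39, adjusted p = 0.114), limma-voom with those factors (0.45, adjusted p = 0.113), array weights (0.46, adjusted p = 0.0675) and without HO 1, DHO 3 and DHO 4 (0.42, adjusted p = 0.152). The cause was not tested.

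The median change of the 39 in HO against WT was -1.54 with a pseudocount of 0.1, -1.64 with limma-voom on library totals and -1.36 with limma-voom and median-of-ratios factors, and in DHO against HO it was 1.48, 1.59 and 1.33. A smaller pseudocount draws low genes less toward 0. At 5 FPKM in 5 libraries 24 of the genes were tested, all 24 lower in HO against WT and all 24 higher in DHO against HO. Most of the 24 had no HO library at 5 FPKM and entered through DHO and WT only. Over all 6977 genes tested then, 3323 were lower and 828 higher in HO than in WT, and 3354 were higher and 814 lower in DHO than in HO. Over all genes in HO against WT, lower and higher calls were 3154 and 2505 with quantile scaling, 2860 and 2494 with median-of-ratios scaling and 2883 and 2454 with limma-voom and those factors. In DHO against HO, lower calls were 2595, 2543 and 2513 under the same 3, and higher calls 3140 and 3147 under the last 2. Without HO 2, HO 4 and DHO 1, 4035 genes were lower and 930 higher in HO than in WT, and 3749 were higher and 934 lower in DHO than in HO.

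In DHO against WT, lower and higher calls over all genes were 10 and 5 at 5 FPKM, 11 and 4 with median-of-ratios scaling, 9 and 3 with limma-voom and those factors, 95 and 91 in a fit of only the 2 groups, and 157 and 189 with array weights. Higher calls were 5 with limma-voom on library totals and 27 without HO 1, DHO 3 and DHO 4, and lower calls were 39 without HO 2, HO 4 and DHO 1. None of these alternatives called any of the 39 genes in DHO against WT.

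Leaving out each library in turn gave 38 to 39 genes lower in HO against WT, 39 higher in DHO against HO and 0 called in DHO against WT. The median change ran from -1.10 to -0.93, from 0.96 to 1.07 and from -0.09 to 0.07. Over all genes, HO against WT gave 4286 to 5151 lower and 1156 to 1665 higher, DHO against HO gave 1226 to 1834 lower and 4442 to 5160 higher, and DHO against WT gave 8 to 44 lower and 3 to 32 higher. No paired analysis was possible because the replicate numbers follow the order of deposition and the labels pair no libraries.

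Genes near 1 FPKM limit what can be read here. Their changes on the log2(FPKM + 1) scale understate ratios, and the reads behind them are few. Single-gene differences between DHO and WT of the size of the intervals given above cannot be told from 0 at this number of libraries.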
